A study of Mus musculus with 8 samples.

Results

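Ornithine, proline and polyamine enzymes were examined by RNA-seq in the lens fiber cells (FC) of 2 groups of mice, exposed to cigarette smoke (CS) or left untreated as controls (Ct). The 8 genes Oat, Aldh18a1, Pycr1, Prodh, Odc1, Oaz1, Srm and Sat1 were matched by symbol among the 35275 genes of the deposited table, and each had 1 row. Oat was chosen by its FPKM, which was lower in every CS-exposed library, so its difference between groups is given as a description without a test. The other 7 genes stand next to Oat in the same metabolic map. The mice were C57BL/6 by the labels and C57BL/6J by the study's methods. CS-exposed mice were born to dams kept in a whole-body smoke chamber and were exposed there 5 hours/day, 5 days/week over 3.5 months, while Ct mice of the same age stayed in the animal facility. Each group gave 4 libraries, each from the pooled right-eye FC of 4 mice. Of these, 2 pools per group were male and 2 female, but the labels do not say which. Values are FPKM, the fragments counted on a gene, scaled to its length and to the size of the library.

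Ornithine is a branch point of amino acid metabolism. Arginase releases it from arginine, ornithine aminotransferase (Oat) moves it into the pyrroline carboxylate pool that joins glutamate and proline, and ornithine decarboxylase (Odc1) commits it to putrescine, spermidine and spermine. Polyamines bind RNA and proteins and are needed for growth, and their supply is held in balance by antizymes, which bind ornithine decarboxylase and send it to the proteasome. In people, loss of OAT raises ornithine and causes gyrate atrophy of the choroid and retina, with cataract as a frequent companion.

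Antizyme is itself made only when the ribosome slips forward by 1 base at the end of a short open frame, which polyamines promote. The windows around this site are shown because they mark the step at which antizyme is controlled, which lies after the RNA level measured here, and because a pseudogene carries the same letters. They were read from GENCODE transcripts of GRCm38, 5′ to 3′, with the stop codon of the short frame in capitals.
Oaz1: cctcggtggtgctccTGAtgtccctca
Oaz2: cctctgtggtgctccTGAtgcccctca
Oaz1-ps: cctcggtggtgctccTGAtgtccctca
The longer transcript models of Oaz1 and Oaz2 in this annotation do not hold this stop codon, so the windows come from shorter transcripts that keep it. In each transcript used, the shifted frame held no stop codon for at least 106 codons after the slip. The window of the processed pseudogene Oaz1-ps was identical to that of Oaz1. Over 681 aligned bases, an Oaz1 transcript and Oaz1-ps were 99.9% identical, with 1 mismatched base and 4 gap bases. Reads that lie wholly within identical parts of this stretch cannot be told apart by sequence. How the authors' counting treated them is not given in the sources used here, so the level of both genes is uncertain to that extent.

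The promoter windows of Oat, the gene picked for its difference, and of Oaz1, the most abundant of the 8 genes, were taken from RefSeq (GRCm38.p6) and span 250 bases before to 50 bases after the start. Promoters of 7 of the 8 genes were matched. The Oat window lies on the minus strand at chr7:132576349-132576648, with the motif CCAAT (searched on both strands) in capitals. The Oaz1 window lies on the plus strand at chr10:80826406-80826705, with TATAAA (searched on both strands) in capitals.
Oat: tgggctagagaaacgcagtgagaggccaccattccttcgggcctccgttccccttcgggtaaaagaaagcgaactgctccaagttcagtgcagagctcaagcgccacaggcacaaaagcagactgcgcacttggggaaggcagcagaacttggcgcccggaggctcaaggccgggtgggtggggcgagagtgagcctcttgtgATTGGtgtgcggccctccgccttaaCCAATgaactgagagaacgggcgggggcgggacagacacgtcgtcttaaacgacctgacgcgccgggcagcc
Oaz1: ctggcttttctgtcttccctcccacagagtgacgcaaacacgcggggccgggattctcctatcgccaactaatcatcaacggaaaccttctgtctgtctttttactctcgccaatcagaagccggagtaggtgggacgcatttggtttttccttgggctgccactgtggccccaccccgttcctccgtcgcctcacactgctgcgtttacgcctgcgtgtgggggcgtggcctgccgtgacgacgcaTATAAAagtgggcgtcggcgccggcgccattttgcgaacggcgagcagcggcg
The Oat window held CCAAT at 2 places, and 37.4% of the 32851 promoter windows of the same length held it at least once. Among the other genes, the Pycr1 window held CCAAT at 2 places and the Oaz1 window at 1. TATAAA was found in the Oaz1 window and in none of the other 6, against 13.6% of all windows. These are matches of letters and not measured binding sites.

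The depth of the libraries, inferred from what 1 read was worth in weakly expressed genes, came to an estimated 18093762 to 23251413 fragments, and the mean depth of CS-exposed libraries was 1.07 times that of Ct libraries. The labelled cell type was checked with 9 fiber markers, among them Cryaa, Crybb2 and Mip, which summed to 302624 to 321042 FPKM per library. The mean log2 value of 9 lens epithelium markers ranged from 1.58 to 2.39 in Ct and from 1.43 to 1.95 in CS-exposed libraries. Summed levels of markers of tissue behind the lens did not overlap between groups, although single markers did. The 8 rod photoreceptor markers summed to 10.6 to 28.7 FPKM in Ct and 30.6 to 87.3 FPKM in CS-exposed libraries, and the 8 pigment epithelium markers, of which Best1 was listed at 0, to 1.53 to 2.12 FPKM and 3.05 to 25.99 FPKM. In the mean of the groups, 8 of 8 rod markers, 7 of 8 pigment epithelium markers and 2 of 9 lens epithelium markers were higher in CS-exposed mice. Taken singly, 6 rod markers and 2 pigment epithelium markers did not overlap between groups. Blood and immune markers overlapped, at 0.406 to 2.52 FPKM in Ct and 0.680 to 22.8 FPKM in CS-exposed libraries. Of 5 ciliary body and iris markers, Acta2 carried nearly the whole sum, and the sum was 268 to 316 FPKM in Ct and 290 to 314 FPKM in CS-exposed libraries. Myoc, Mgp, Cldn19 and Des were each at most 0.216 FPKM in any library, so the sum is not read as a level of ciliary body or iris. The part of these tissues in the differences described here was not tested. In bulk samples such as these, fewer cells of a type and less RNA per cell cannot be told apart.

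In lens FC the 8 genes covered a wide range of levels, in an order that held in nearly every library. Oaz1 had the highest level with a mean of 206 FPKM over the 8 libraries, followed by Oat at 69.5, Odc1 at 45.7, Srm at 14.7, Aldh18a1 at 6.13, Sat1 at 3.75, Prodh at 1.153 and Pycr1 at 0.422 FPKM. By mean level Oaz1 was at rank 195 and Oat at rank 485 of all genes listed. From Oaz1 down to Prodh, the library ranges of neighbours in this order did not overlap. Prodh and Pycr1 overlapped, with Prodh above Pycr1 in 7 of 8 libraries. The transcripts of Oat and Odc1, which both use up ornithine, were abundant, while those of the reductase Pycr1 and of proline dehydrogenase were near or under 1 FPKM.

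**Figure D1:**
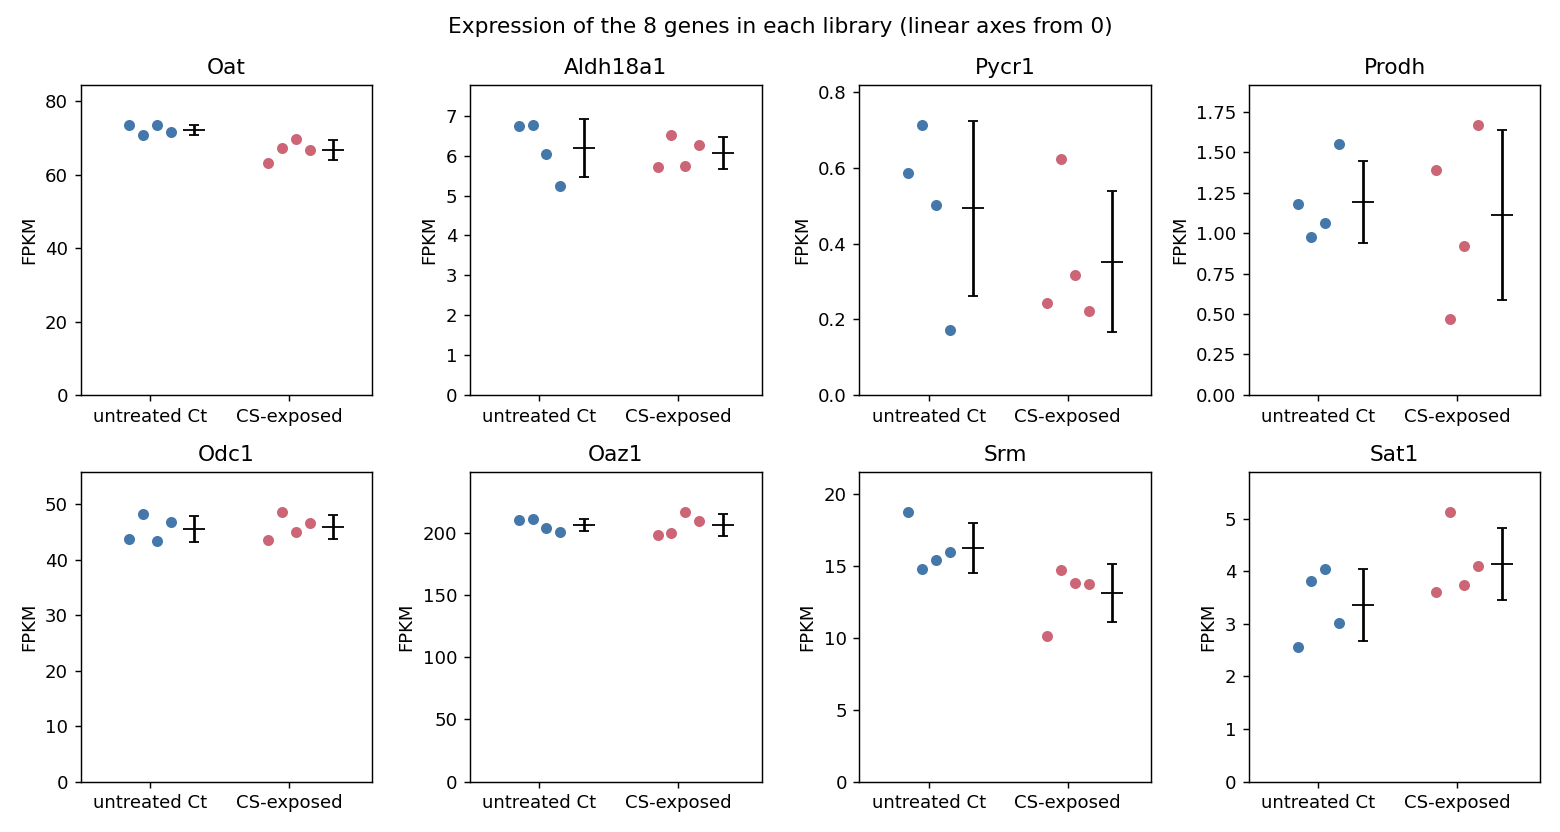
FPKM of the 8 genes (vertical axes, linear from 0) in the 4 untreated Ct and 4 CS-exposed libraries, with points for libraries and black bars for the group mean ± SD. Oat and Srm lie lower in each CS-exposed library than in every Ct library, while Odc1 and Oaz1 overlap widely.

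Differences between groups were estimated with limma on log2(FPKM + 0.1), a scale that understates the change of low genes, over the 9794 genes that averaged 1 FPKM or more in Ct, in CS-exposed mice or in both. Of the 8 genes, 7 reached this minimum, and Pycr1 did not. Apart from Oat, 1 of the 6 genes tested (Srm) was lower in CS-exposed mice at an unadjusted limma p value under 0.05 and 0 were higher, against 2.08% of all genes tested that were lower and 2.75% that were higher. No gene among these 6 had a limma adjusted p value under 0.05 (1 of all 9794 genes did, 0.0102%). The median log2 difference of these 6 genes was -0.015, against 0.0043 over all genes tested.

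Oat encodes the mitochondrial enzyme that passes the terminal amino group of ornithine to oxoglutarate, which becomes glutamate, and lies on the minus strand of chr7:132557478-132576398 (GRCm38). Its expression was 73.4, 70.7, 73.5 and 71.7 FPKM in the Ct libraries and 63.1, 67.3, 69.6 and 66.8 FPKM in the CS-exposed libraries. Each CS-exposed library was below every Ct library, and the lowest Ct value, 70.7 FPKM, stood close to the highest CS-exposed value, 69.6 FPKM. Groups did not overlap in this direction for 1.29% of all genes tested and in the opposite direction for 1.8%, but nothing is read from this, since Oat was picked for it. The group means were 72.3 ± 1.36 FPKM (SD, n = 4) in Ct and 66.7 ± 2.70 FPKM (SD, n = 4) in CS-exposed mice, a change of -7.77% and a log2 difference of -0.12. Between 2794 and 3681 reads stood behind each value. When 1 library was left out, the log2 difference ranged from -0.14 to -0.091. The value of -0.14 came without CS-exposed replicate 3, the library with the highest rod and pigment epithelium markers. This library had the highest Oat value of its group.

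The tested genes whose values followed Oat most closely over the 8 libraries were Rnf220, Capn2 and Cox6a1. After each gene was centred on its own mean log2 value, their root-mean-square distance to Oat was 0.029, 0.033 and 0.033, and the median over all genes tested was 0.17. Rnf220 encodes a ubiquitin ligase, Capn2 a calcium-dependent protease and Cox6a1 a subunit of cytochrome c oxidase. Since Oat was picked for its group difference, a small distance to it includes that difference, and the log2 differences of these genes were -0.11, -0.10 and -0.095.

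Around Oat stand the other genes that handle ornithine and arginine. The list of 14 such genes held 6 that were tested, and apart from Oat none of the other 5 passed a limma p value under 0.05 in either direction, which is near the share of 4.83% among all genes tested, with log2 differences between -0.046 and 0.0013. Ass1 and Asl, which build arginine from citrulline, had log2 differences of -0.046 (95% interval -0.30 to 0.21) and 0.0013 (-0.16 to 0.16). Slc25a15, the mitochondrial ornithine carrier, was at 1.08 ± 0.304 FPKM (SD, n = 4) in Ct and 1.03 ± 0.144 FPKM (SD, n = 4) in CS-exposed mice. Ass1, at a mean of 74.6 FPKM in Ct mice, was near the level of Oat, whereas the urea cycle enzyme Otc was listed at 0 in each library.

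Slc7a1, an importer of arginine and ornithine, and Slc25a2, a mitochondrial carrier of ornithine, were under the minimum and did not overlap between groups, which is why they are named. Of the 21019 genes above 0 in any library, 1.08% did not overlap with lower and 1.18% with higher values in CS-exposed mice. Slc7a1 was at 0.518, 0.741, 0.971 and 0.531 FPKM in Ct and 0.436, 0.416, 0.495 and 0.399 FPKM in CS-exposed libraries, on 62 to 162 reads, and without a minimum FPKM limma gave a log2 difference of -0.52 (unadjusted p = 0.0888). The lens epithelium markers, like Slc7a1, were highest in Ct replicate 3 and next in Ct replicate 2 among Ct libraries (mean log2 values 2.39 and 1.83). Between groups the order differed. The markers were higher in CS-exposed replicates 3 and 2 (1.95 and 1.77) than in Ct replicates 1 and 4 (1.59 and 1.58), where Slc7a1 was higher. The part of the lens epithelium in the difference of Slc7a1 was not tested. In the fit without a minimum 1.93% of 21019 genes were lower and 2.17% higher at an unadjusted p value under 0.05. Slc25a2 was listed at 0 in each Ct library and had 1, 3, 2 and 6 reads in the CS-exposed libraries. In a Ct library, 3 reads of Slc25a2, the limit that a count of 0 allows for counting error only, would have been 0.0959 to 0.123 FPKM, and of the CS-exposed libraries only replicate 4, at 0.206 FPKM, lay above this whole range. The fit without a minimum gave Slc25a2 an unadjusted limma p value of 0.0044, and also passed Slc6a20a, a proline carrier, at 0.0428. Both genes entered that fit only through their reads in CS-exposed libraries. This fixed the direction in advance, so nothing is read from these p values. Slc6a20a had 0 reads in each Ct library and 4, 0, 2 and 3 reads in the CS-exposed libraries, so its groups overlapped. Fitted differences of genes with so few reads depend on the pseudocount and are not given, and the limma adjusted p value was 0.906 for both.

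The next list joins glutamate and proline. Of 13 such genes, 10 were tested and 0 had a limma p value under 0.05, which is near the share of 4.83% among all genes tested, with 8 log2 differences below 0, 2 above 0 and a median of -0.070. Aldh18a1, the synthase that makes pyrroline carboxylate from glutamate (chr19:40550257-40588463), was at 6.76, 6.76, 6.05 and 5.23 FPKM in Ct and 5.72, 6.53, 5.73 and 6.28 FPKM in CS-exposed libraries. All CS-exposed values lay within the Ct range, and the log2 difference of -0.026 had a 95% interval from -0.25 to 0.20 (limma p = 0.804, exact permutation p = 0.886). Prodh, the proline dehydrogenase that returns proline to the same pool (chr16:18060357-18090203), was at 1.18, 0.977, 1.06 and 1.55 FPKM in Ct and 1.39, 0.472, 0.919 and 1.67 FPKM in CS-exposed libraries. Its values rested on 26 to 86 reads, the CS-exposed libraries held both its lowest and its highest value, and the log2 difference of -0.20 had a wide 95% interval, from -0.92 to 0.53 (limma p = 0.562, exact permutation p = 0.714).

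Pycr1, which reduces pyrroline carboxylate to proline in mitochondria (chr11:120635712-120643769), was at 0.587, 0.713, 0.502 and 0.171 FPKM in Ct and 0.244, 0.624, 0.318 and 0.222 FPKM in CS-exposed libraries. These values stood on 9 to 42 reads and overlapped (two-sided exact permutation test, p = 0.457). Pycrl, the cytosolic reductase, was expressed at a higher level, at 8.87 ± 0.773 FPKM in Ct and 8.13 ± 0.680 FPKM in CS-exposed libraries (SD, n = 4 each), with a log2 difference of -0.12 (95% interval -0.32 to 0.076). Aldh4a1, which oxidizes the pool to glutamate, was at 1.10 ± 0.314 and 1.06 ± 0.0492 FPKM (SD, n = 4 each). Glul, which turns glutamate into glutamine, had a log2 difference of 0.19 (95% interval -0.092 to 0.47).

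Odc1 and Oaz1, the enzyme that opens polyamine synthesis and the antizyme that removes it, were even between libraries, with within-group SDs of 0.072 and 0.049 on the log2 scale. Odc1 (chr12:17544794-17551505) was at 43.7, 48.4, 43.4 and 46.8 FPKM in Ct and 43.5, 48.6, 45.0 and 46.6 FPKM in CS-exposed libraries. The groups covered nearly the same range, and the log2 difference was 0.012 (95% interval -0.11 to 0.14, limma adjusted p = 0.995). Oaz1 (chr10:80826656-80829290) was at 209.9, 210.7, 203.7 and 200.8 FPKM in Ct and 197.9, 199.4, 216.4 and 209.5 FPKM in CS-exposed libraries. Both the lowest and the highest value came from CS-exposed mice, and the log2 difference was -0.0040 (95% interval -0.096 to 0.088, limma p = 0.925, exact permutation p = 0.886).

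Within a library the ratio of Oaz1 to Odc1 FPKM was 4.54 ± 0.249 (SD, n = 4) in Ct and 4.49 ± 0.294 (SD, n = 4) in CS-exposed mice, and the ranges overlapped. The pseudogene Oaz1-ps, which shares the letters shown above, was counted at 6.46 ± 0.253 FPKM in Ct and 7.01 ± 1.93 FPKM in CS-exposed libraries (SD, n = 4 each). The ratio of Oaz1 to Oaz1-ps was steady in Ct libraries, at 30.4 to 34.2, and spread from 22.2 to 39.6 in CS-exposed libraries. Among other regulators, Oaz2 had a log2 difference of -0.061 (95% interval -0.25 to 0.13) and Oaz3 of 0.24 (-0.18 to 0.66). The antizyme inhibitors, which resemble ornithine decarboxylase and take antizyme away from it, had log2 differences of -0.036 for Azin1 (-0.17 to 0.10) and 0.17 for Azin2 (-0.063 to 0.41), which the table lists by its older symbol Adc. Leaving out 1 library gave Oaz3 an unadjusted limma p value of 0.0137 (without CS-exposed replicate 2, log2 difference 0.43) and Azin2 of 0.0175 (without CS-exposed replicate 4, 0.26). The limma adjusted p values in these fits were 0.919 and 0.990. No other alternative gave either gene an unadjusted p value under 0.05. Amd1, which makes the aminopropyl donor for the next steps, had a log2 difference of 0.015 (-0.15 to 0.18). Amd2 had at most 18 reads in a library.

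Srm, the spermidine synthase that adds an aminopropyl group to putrescine, lies on the plus strand of chr4:148591503-148594993. It was at 18.8, 14.8, 15.4 and 16.0 FPKM in Ct and 10.2, 14.8, 13.8 and 13.8 FPKM in CS-exposed libraries. Each CS-exposed library was below every Ct library, but CS-exposed replicate 2 at 14.76 FPKM was only just under Ct replicate 2 at 14.80 FPKM. As given for Oat, 1.29% of all genes tested did not overlap in this direction. The means were 16.2 ± 1.75 FPKM (SD, n = 4) in Ct and 13.1 ± 2.03 FPKM (SD, n = 4) in CS-exposed mice, a change of -19.1% on 287 to 499 reads per library. The log2 difference was -0.31 (standard error 0.12, 95% interval -0.57 to -0.056, limma p = 0.0212, exact permutation p = 0.0286, which is the smallest possible, lower in 4 of 4 CS-exposed libraries), and the limma adjusted p value over all genes tested was 0.956. The unadjusted limma p value rested on 2 libraries, the highest of Ct and the lowest of CS-exposed mice: it was 0.0698 without Ct replicate 1 (log2 difference -0.24) and 0.0564 without CS-exposed replicate 1 (-0.19).

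Sms, the spermine synthase that carries out the following step with the same donor, was at 14.5 ± 0.845 FPKM (SD, n = 4) in Ct and 15.4 ± 0.758 FPKM (SD, n = 4) in CS-exposed mice, a log2 difference of 0.092 (95% interval -0.061 to 0.24). Within a library the ratio of Srm to Sms FPKM was 1.27, 1.12, 1.01 and 1.09 in Ct and 0.709, 0.955, 0.862 and 0.871 in CS-exposed libraries. Srm was thus above Sms in each Ct library and below it in each CS-exposed library. This ratio was formed after the values of Srm had been seen and is given without a test. Of the 10 genes of polyamine synthesis and its regulators, 9 were tested, and Srm was the 1 with a limma p value under 0.05, where 4.83% of all genes tested passed.

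**Figure D2:**
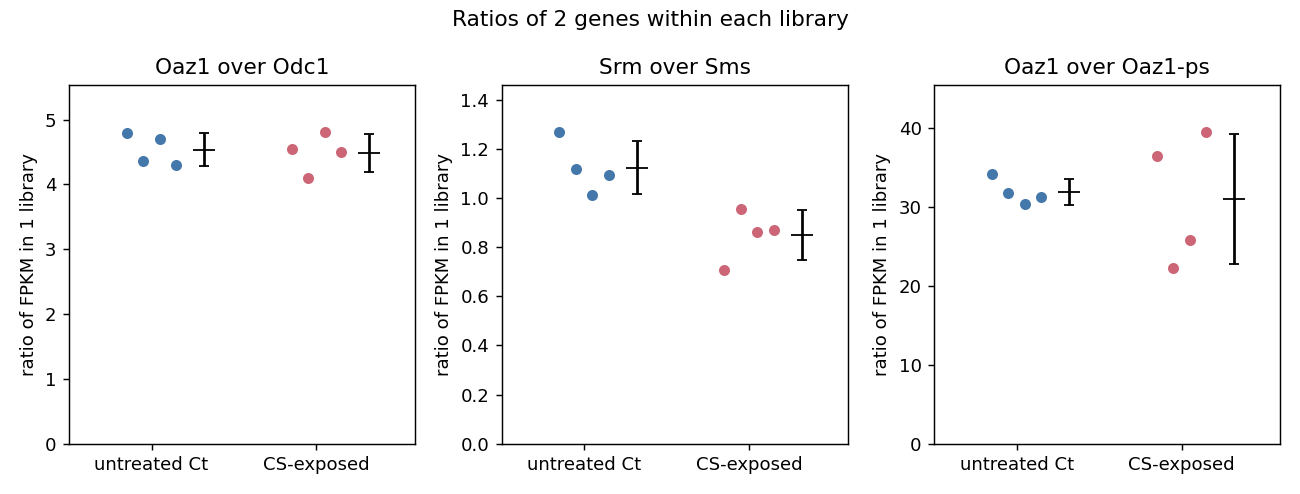
Ratios of FPKM of 2 genes within each library (vertical axes, linear from 0) for untreated Ct and CS-exposed libraries, with points for libraries and black bars for the mean ± SD. Oaz1 over Odc1 overlaps between groups, Srm over Sms is 1.01 to 1.27 in Ct and 0.709 to 0.955 in CS-exposed libraries, and Oaz1 over Oaz1-ps spreads more in CS-exposed libraries.

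Sat1, the acetyltransferase that starts the breakdown and export of spermidine and spermine, lies on the X chromosome (chrX:155213132-155216449). It was at 2.57, 3.82, 4.04 and 3.03 FPKM in Ct and 3.61, 5.12, 3.75 and 4.10 FPKM in CS-exposed libraries, on 69 to 160 reads. The groups overlapped, with 2 CS-exposed libraries above every Ct library. The log2 difference of 0.30 (95% interval -0.046 to 0.65) did not pass the test (limma p = 0.0827, exact permutation p = 0.229). It rested on single libraries in both directions: it was 0.40 (limma p value 0.0343) without Ct replicate 3, 0.18 (0.248) without Ct replicate 1 and 0.20 (0.240) without CS-exposed replicate 2. With a replicate block the limma p value of Sat1 was 0.0430. Of 9 genes of polyamine acetylation, oxidation and transport, 6 were tested and 0 had a limma p value under 0.05, which is near the 4.83% of all genes tested, with log2 differences from -0.15 to 0.30. Sat2, a related acetyltransferase, had a log2 difference of -0.15 (-0.51 to 0.21) and the spermine oxidase Smox of -0.022 (-0.56 to 0.52). Polyamine transporters of the lysosome and endosomes, Atp13a2 and Atp13a3, had log2 differences of -0.10 (-0.30 to 0.10) and 0.028 (-0.19 to 0.25). Slc3a2, an amino acid transporter chain also tied to polyamine export, was at 14.1 ± 4.63 FPKM in Ct and 12.5 ± 2.77 FPKM in CS-exposed libraries (SD, n = 4 each), with its highest values in replicate 3 of each group. Paox had at most 20 reads, and Aoc1 was listed at 0.

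Polyamine synthesis leaves methylthioadenosine, which the methionine salvage enzymes recycle, and spermidine is the source of hypusine, the modified lysine of the translation factor eIF5A. Of the 7 salvage and supply genes and the 4 genes of the hypusine pathway, each was tested and 0 had a limma p value under 0.05, again near the 4.83% of all genes tested. The median log2 difference was 0.018 in the former and 0.028 in the latter list. Eif5a was the most abundant gene of all lists, at 292 ± 7.22 FPKM (SD, n = 4) in Ct and 297 ± 9.46 FPKM (SD, n = 4) in CS-exposed mice, with a log2 difference of 0.024 (95% interval -0.059 to 0.11). Mtap, which takes up methylthioadenosine, had a log2 difference of -0.14 (-0.32 to 0.046), and of -0.19 without CS-exposed replicate 4 (unadjusted limma p value 0.0474, limma adjusted p value 0.995). No other alternative gave Mtap an unadjusted p value under 0.05.

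Over all lists, 42 of 57 genes were tested. Without the 8 genes named at the outset there were 35, of which 0 had a limma p value under 0.05 and 0 did not overlap between groups, against 4.83% and 3.08% of all genes tested. Their log2 differences had a median of -0.018 and a median size of 0.061, against 0.0043 and 0.084 over all genes tested. In the plot of differences by list, Srm is the 1 gene whose interval leaves out 0, and the interval of Gls2, a glutaminase, ends just past it (log2 difference -0.38, 95% interval -0.76 to 0.00072, limma p = 0.0504, exact permutation p = 0.0857). The unadjusted limma p value of Gls2 was 0.0160 without Ct replicate 2 (log2 difference -0.49) and 0.0447 without CS-exposed replicate 1 (-0.44). With all libraries it was 0.0339 without a variance trend, 0.0482 with a robust trend and 0.0428 with a replicate block. The limma adjusted p values of Gls2 in the fits just named were 0.907 to 0.974. No other alternative gave Gls2 an unadjusted p value under 0.05.

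**Figure D3:**
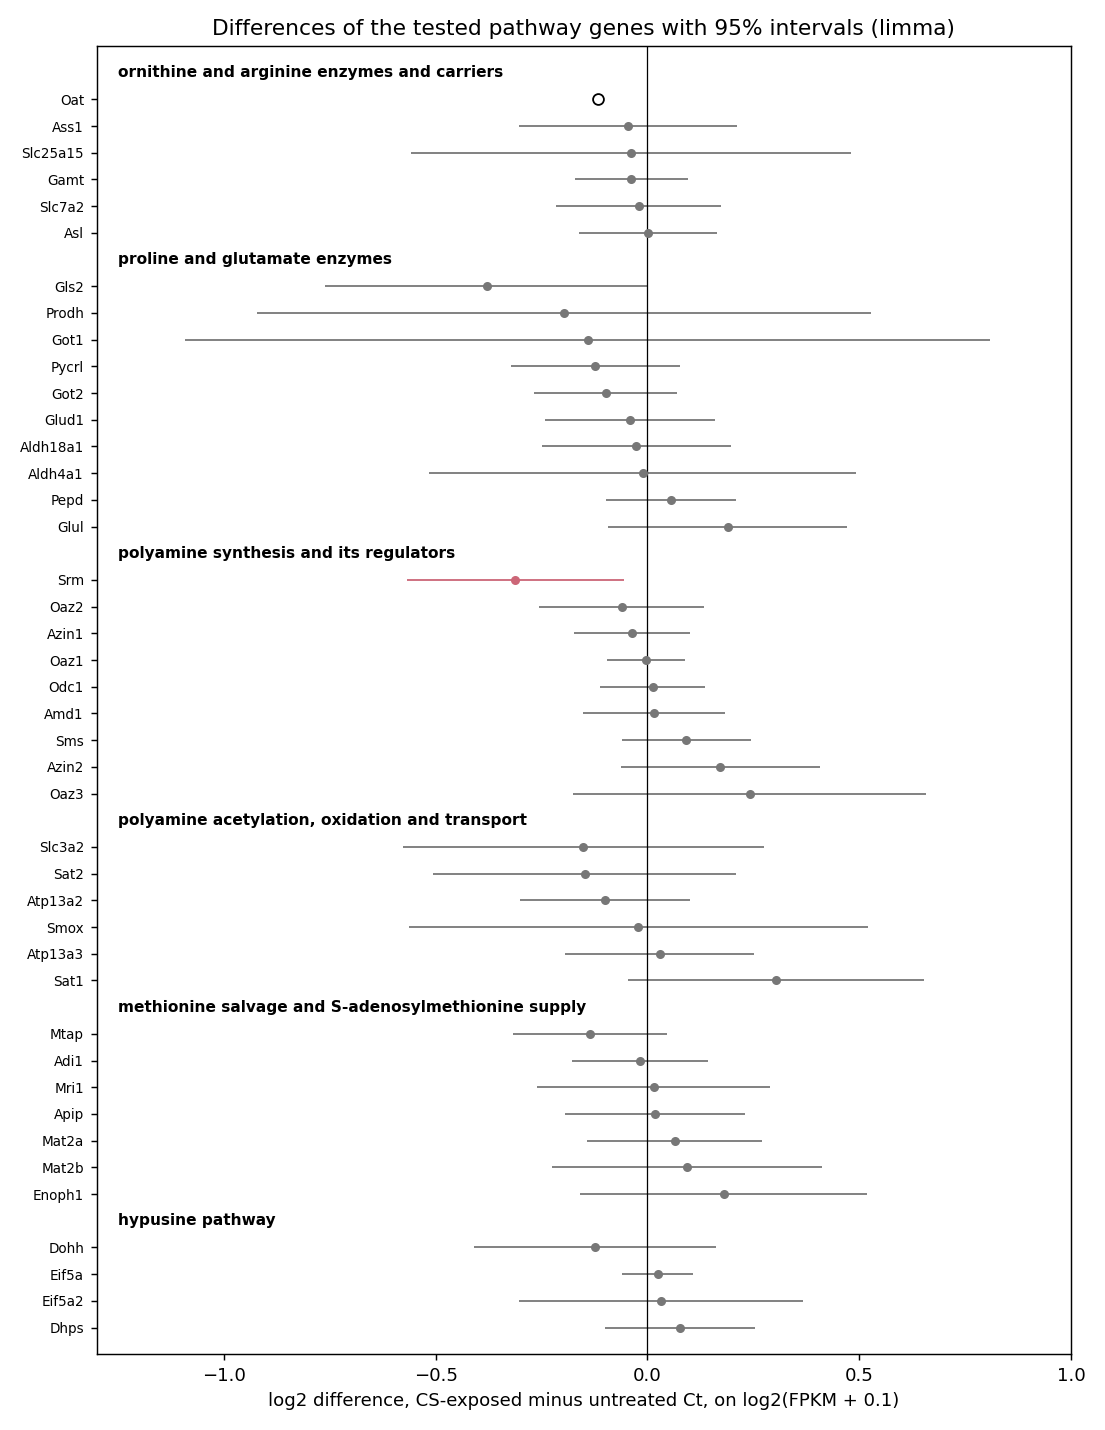
Log2 difference of CS-exposed minus untreated Ct mice (horizontal axis) for the 42 tested genes of 6 lists, with points for the limma estimate and lines for 95% intervals. Srm (red) has an unadjusted limma p value under 0.05, and Oat (open circle) is shown without an interval because it was picked for its difference.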

How the data were processed

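RNA was sequenced from 8 libraries of lens FC, 4 from CS-exposed and 4 from untreated Ct mice, each from a pool of 4 mice. Per the submitters' processing notes, the authors aligned reads to GRCm38 (STAR 2.5), assigned them to genes (HTSeq 0.6.1) and deposited the FPKM of every library. The annotation release is not given in the sources used here. The table also holds the authors' group means of FPKM and their DESeq2 comparison (log2 fold changes and p-values, deposited by the authors), which were not used. Groups and replicate numbers were taken from the sample titles.

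Genes averaging 1 FPKM or more in at least 1 group were compared on log2(FPKM + 0.1) with lmFit and eBayes (variance trend) of limma 3.58.1 in R 4.3.3, two-sided, with p values adjusted by Benjamini-Hochberg across the tested genes. The fit was tested on simulated data with known changes. These were larger than the main estimate of any tested gene in the lists, so the simulation does not bear on differences as small as those. For genes other than Oat, exact permutation tests used the 70 assignments of libraries, unadjusted. Whole reads were recovered from FPKM steps in 1499 of 1500 sampled genes (within 0.02 of a whole number). The fragments per library are estimates from GENCODE exon lengths, with 118 of 1417 genes at the most frequent estimate. P values measure the spread between pools. Lim2, with 3 rows, was left out of the fiber markers.

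The genes, lists and tests were chosen with earlier results of these data known. Some genes of the original choice are not reported here and are left out of all counts of the 8 genes and the lists. Named are the 8 genes, tested polyamine genes, Pycrl, Aldh4a1, Slc25a15, Glul, pathway genes with a p value under 0.05 or groups that do not overlap, and the 3 genes nearest to Oat; Ass1, Asl, Gls2, Mtap, Eif5a, Oaz1-ps and genes near 0 were added after their values were seen. Alternatives were pseudocounts of 1 and 0.01, no minimum and 5 FPKM, median centring, quantile normalization, no trend, a robust trend, a replicate block, and leaving out each library. Python 3.11.15 with numpy 2.4.6, pandas 2.3.3 and matplotlib 3.10.9 gave the other values.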

Additional observations from a re-analysis of the deposited data

How the results depend on the processing

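The log2 difference of Oat ranged from -0.14 to -0.091 over 17 alternatives, and nothing is read from its direction, which the choice of this gene largely fixes. Srm was lower under all 17, from -0.37 to -0.19, with an unadjusted p value under 0.05 in 15 of 17 and between 0.0118 and 0.0698. Of the 7 genes other than Oat, 1 had a p value under 0.05 as reported, 2 with the replicate block (Srm and Sat1) and 0 to 2 when 1 library was left out. Of the pathway genes other than Oat, 1 passed as reported, 3 without a minimum FPKM (Slc25a2 and Slc6a20a beside Srm), 2 without a trend, 2 with a robust trend, 3 with the replicate block (Gls2 beside Srm and Sat1) and 0 to 3 when 1 library was left out. Slc25a2 and Slc6a20a entered the fit without a minimum only through reads in CS-exposed libraries, so nothing is read from that rise. Of all genes tested in the same fits, 4.83% passed as reported, 4.1% without a minimum, 5.08% without a trend, 4.78% with a robust trend, 5.33% with the block and 4.28% to 5.35% when 1 library was left out. Of the 8 genes, 4 that did not pass the test changed sign when 1 library was left out: Aldh18a1 ranged from -0.10 to 0.018, Prodh from -0.42 to 0.12, Odc1 from -0.016 to 0.041 and Oaz1 from -0.029 to 0.014. Odc1 was at -0.0067 with quantile normalization. A minimum of 5 FPKM left no value for Prodh and Sat1, and Pycr1 and Slc7a1 had one only without a minimum. The cause of these changes between settings was not tested, and the fit without a minimum also held more genes. Same-numbered libraries of the groups deviated together with correlations of 0.012 to 0.16 across genes (mean 0.090). Libraries of different numbers gave -0.13 to 0.055 (mean -0.030). Not every library was closest to its own number, and the study describes no pairing. The numbers were therefore not taken as pairs in the main fit, and the replicate block was kept as an alternative. What same-numbered libraries share was not tested. The block changed no other call among the pathway genes. Pycr1, Prodh and Sat1 rested on few reads, with at most 42, 86 and 160 reads in a library, and the part of counting error in their spread was not tested.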
